A study of Mus musculus with 18 samples.

Results

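A set of 10 genes commonly read as a panel of epithelial-mesenchymal transition (EMT) was followed in primary murine renal proximal tubulo-interstitial epithelial cells (RPTEC). They are a panel of names with no threshold on a measured value, chosen with earlier results of these data known, and were drawn from the 36528 genes in the count tables: the cadherins Cdh1 and Cdh2, the structural genes Vim, Fn1 and Acta2, and the transcription factors Snai1, Snai2, Zeb1, Zeb2 and Twist1. All 10 passed the filter on low counts (over 10 reads in 4 or more samples), as did 15521 genes in all. The cells came from a commercial source (C57BL/6 strain, ScienCell) and were analysed in 6 groups of 3 samples. They received vehicle (DMSO), recombinant mouse TWEAK at 100 ng/mL, or TWEAK at 100 ng/mL with NIK SMI1 at 3 μM, each for 6 h or 24 h. All groups are cultures of these wild-type cells, with no group that received NIK SMI1 alone and none given another EMT inducer. The age and sex of the source animals of these cells and the number of separate cell preparations were not given in the sources used here, and 4 Y chromosome genes summed to 56.3 to 74.2 CPM (reads scaled to the read total of the sample) in every sample.

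In EMT, epithelial cells loosen the junctions that join them to their neighbours and take on features of motile mesenchymal cells. Cdh1 encodes E-cadherin, the adhesion molecule of epithelial junctions, and Cdh2 encodes N-cadherin, which is often gained in EMT of other epithelia but is normally made by proximal tubule cells. The zinc finger factors Snai1, Snai2, Zeb1 and Zeb2 and the basic helix-loop-helix factor Twist1 are known as repressors of epithelial genes, Cdh1 among them, and bind or act through E-box sequences. Vim (vimentin, an intermediate filament), Fn1 (fibronectin, a matrix glycoprotein) and Acta2 (smooth muscle actin) are the usual structural readouts, and in the kidney they are read as signs of tubular injury and myofibroblast activation. TWEAK is a cytokine of the TNF family that acts through the receptor Fn14 on canonical and non-canonical NF-κB, and NIK is the kinase of the non-canonical branch, which NIK SMI1 inhibits.

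Read totals on genes ran from 18040966 to 51956444 across the samples, with a median of 35374254. Traf1, an adaptor of TNF receptors and a known TWEAK target, followed the labels, since it stood at 1.15 ± 0.238 CPM (mean ± SD, n = 3) in vehicle at 24 h, at 57.5 ± 2.47 CPM with TWEAK and at 10.7 ± 0.559 CPM when NIK SMI1 was added. It was 1 of 8 genes checked, which were chosen with earlier results of these data known. At 24 h 7 of them rose with TWEAK at an adjusted p below 0.05 (18.3% of all genes). When NIK SMI1 was added, 6 fell (8.29%) and 1 rose (10.2%). Tnfrsf12a, the gene of Fn14, stood at 412.2, 414.2 and 412 CPM in the same order. Map3k14, the gene of NIK, went from 57.4 to 110.8 and then to 139 CPM. The label of the cells was met in part: tubular epithelium markers summed to 6351 to 7908 CPM, while 8 of 12 proximal tubule markers stayed under 1 CPM in every sample, among them Lrp2, Slc34a1, Aqp1 and Hnf4a, and Slc22a8 and Miox had no read. Fibroblast and pericyte markers were under 1 CPM in every sample for 9 of 11 genes, including Pdgfra, Pdgfrb and Dcn, and the 11 summed to 10.5 to 15.7 CPM. Of 6 smooth muscle markers 5 were under 1 CPM, but the list summed to 215.9 to 297.6 CPM through Smtn, a cytoskeletal gene, at 215.5 to 297.0 CPM. The 6 endothelial markers summed to at most 0.813 CPM, and of 7 leukocyte markers all but Cd68 (11.2 to 14.2 CPM) were under 1 CPM. Of 5 podocyte markers 3 were under 1 CPM, while Podxl and Synpo were not, and the list moved with the groups: it summed to 444.2 to 446.2 CPM in vehicle, 371.9 to 375.5 CPM with TWEAK and 424.6 to 439.9 CPM with NIK SMI1 at 6 h, and to 404.4 to 410.3, 278.7 to 285.6 and 338.6 to 345.7 CPM at 24 h. The part of these markers in the results was not tested. Reads of pancreatic islet markers summed to 14.1 to 31.2 CPM in the vehicle samples, the 6 h samples and replicate 1 of TWEAK at 24 h, but to 0.235 and 4.42 CPM in replicates 2 and 3 of TWEAK at 24 h and to 0.0451 to 0.0870 CPM in the 3 samples with NIK SMI1 at 24 h. Results at 24 h were therefore also fitted with replicate 1 or replicate 2 as the only TWEAK sample, and these values stand beside each call they change. In the comparison of NIK SMI1 with vehicle at 24 h, islet reads and treatment cannot be told apart.

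Levels per length placed the epithelial and the matrix genes far above the transcription factors. Fn1 had the highest RPKM (reads scaled to exon length and to the read total) of the panel, with a mean of 796.5 over the 18 samples (range 696.3 to 1037), which ranked 27 of all genes. Cdh1 followed at 267.3 RPKM (220.7 to 319.5) and Cdh2 at 34.8 RPKM (27.3 to 39.4), so that both cadherins were expressed side by side in every sample. Vim stood at 14.0 RPKM (11.4 to 16.8) and Acta2 at 1.73 RPKM (1.18 to 2.55).

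Among the transcription factors Zeb2 had the highest level per length, at 2.22 RPKM (1.71 to 2.79). Snai1 (0.649 RPKM), Zeb1 (0.579 RPKM) and Twist1 (0.480 RPKM) lay close together, and Snai2 was lowest at 0.150 RPKM, with only 4 to 21 reads per sample. Depth therefore limited Snai2, Twist1 (12 to 51 reads) and Snai1 (12 to 96 reads), but not Zeb2 (350 to 1384 reads) or the structural genes other than Acta2 (76 to 287 reads). Zeb1 had 42 to 524 reads, with the fewest in vehicle at 24 h (42 to 78 reads). The span between the lowest and the highest group mean of CPM was 5.47-fold for Zeb1 and 2.39-fold for Snai1, against 1.21-fold to 1.76-fold for the other 8 genes.

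**Figure D1:**
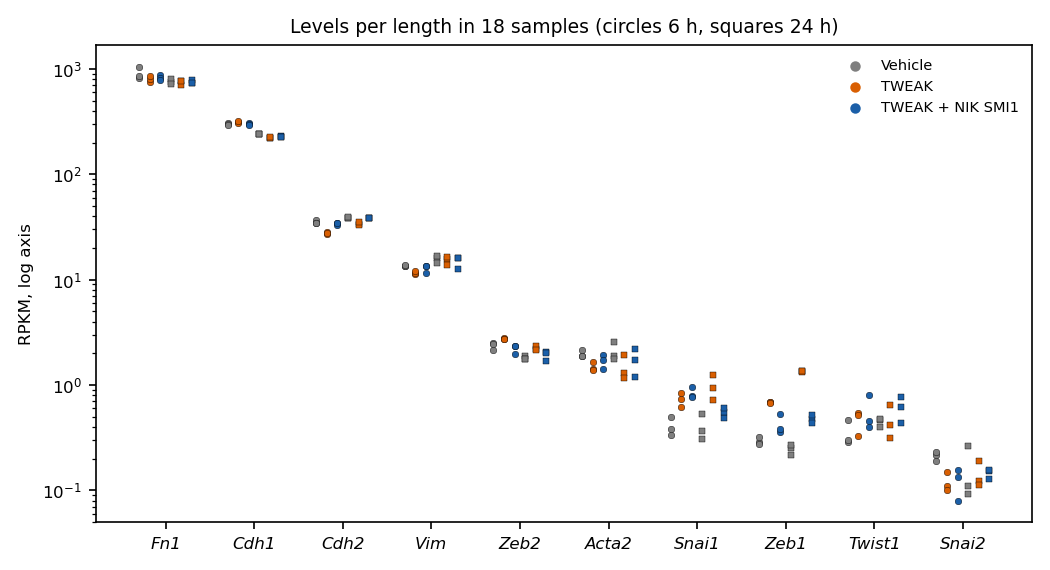
Levels per length (RPKM, log axis) of the 10 genes in each of the 18 samples, with circles for 6 h, squares for 24 h and colours for the treatment. The means fall from 796.5 RPKM for Fn1 to 0.150 RPKM for Snai2, and Zeb1 shows the widest separation between groups.

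To ask whether TWEAK moved the panel, each group was compared with vehicle at the same time. At 6 h TWEAK changed 5 of the 10 genes at an adjusted p below 0.05 (edgeR quasi-likelihood test, Benjamini-Hochberg over all tested genes), where 23.7% of all tested genes were called. Zeb1, Snai1, Zeb2 and Cdh1 rose (4 of 10, with 11.7% of all genes called higher) and Cdh2 fell (1 of 10, with 12.0% called lower). At 24 h 6 of 10 genes changed, against 39.0% of all genes: Zeb1, Snai1 and Zeb2 rose (background 18.3%) and Cdh1, Cdh2 and Acta2 fell (background 20.7%). Changes of more than 2-fold were limited to Zeb1 at 6 h, where 1.75% of all genes were called and more than 2-fold higher, and to Zeb1 and Snai1 at 24 h, where 2.34% were. Over the 10 genes the median log2 fold change was −0.04 at both times, beside −0.0034 and −0.0055 over all genes. In bulk samples a change in the share of a kind of cell and a change of RNA per cell cannot be told apart.

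Zeb1 (Entrez Gene 21417, chromosome 18) showed the strongest response. Its level was 2.40, 2.30 and 2.71 CPM in the vehicle samples at 6 h and 5.74, 5.82 and 5.57 CPM with TWEAK. At 24 h the vehicle samples held 1.82, 2.13 and 2.25 CPM and the TWEAK samples 11.4, 11.2 and 11.3 CPM. The groups did not overlap at either time, and the 3 TWEAK samples at 24 h lay closer together than those of any other group. Zeb1 rose 2.32-fold at 6 h (log2 fold change 1.21 ± 0.12 SE, adjusted p = 7.19e-09) and 5.59-fold at 24 h (2.48 ± 0.13 SE, adjusted p = 7.02e-15), and ranked 198 of 1816 and 78 of 2843 among the genes called higher. The increase at 24 h was as large with replicate 1 of TWEAK alone (log2 fold change 2.50, adjusted p = 1.28e-10), the replicate with islet reads, as with replicate 2 alone (2.46, adjusted p = 3.1e-11), which lacked them.

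The response of Zeb1 also grew with time. The difference of the TWEAK effect between 24 h and 6 h was 1.27 ± 0.18 SE on the log2 scale (adjusted p = 2.01e-05), rank 26 of the 503 genes whose effect was more positive at 24 h. Of the 10 genes 2 had a difference that passed the test, against 8.91% of all genes: Zeb1 upward (3.24% of all genes) and Cdh1 downward (5.67%). For Snai1 the difference was 0.48 ± 0.37 SE (adjusted p = 0.522) and its 95% interval ran from −0.28 to 1.24. Zeb2 had a difference of 0.06 with an interval from −0.15 to 0.28 (adjusted p = 0.807).

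Snai1 (Entrez Gene 20613, chr2:167538195-167542814 in GRCm38, forward strand) was the other factor with a change above 2-fold. Its vehicle samples at 6 h held 0.551, 0.828 and 0.635 CPM and its TWEAK samples 1.03, 1.21 and 1.37 CPM. At 24 h the values were 0.514, 0.609 and 0.879 CPM in vehicle and 1.54, 2.05 and 1.20 CPM with TWEAK. No TWEAK sample reached down to the vehicle samples at either time, although the groups spread widely. Snai1 rose 1.81-fold at 6 h (log2 fold change 0.85 ± 0.25 SE, adjusted p = 0.0110) and 2.52-fold at 24 h (1.33 ± 0.26 SE, adjusted p = 1.98e-04). The call at 6 h was lost without vehicle replicate 3 (adjusted p = 0.0506) or without TWEAK replicate 3 (adjusted p = 0.0529), while the call at 24 h held in all 14 alternative settings run.

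Zeb2 (Entrez Gene 24136, chr2:44983632-45117395, reverse strand), the relative of Zeb1, was more abundant and moved less. At 6 h its level was 24.8, 21.7 and 24.5 CPM in vehicle and 28.1, 27.5 and 27.1 CPM with TWEAK, and at 24 h 18.9, 17.8 and 17.8 CPM in vehicle and 21.8, 23.8 and 21.5 CPM with TWEAK. The groups were separated at both times. It rose 1.17-fold at 6 h (log2 fold change 0.23 ± 0.07 SE, adjusted p = 0.0155) and 1.23-fold at 24 h (0.30 ± 0.08 SE, adjusted p = 0.00333). The call at 6 h was lost without vehicle replicate 2 (adjusted p = 0.112), and that at 24 h without replicates 2 and 3 of TWEAK (adjusted p = 0.121). Zeb2 overlaps the antisense gene Zeb2os, which had 23 to 95 reads, and the library kit does not mark strand, so reads from shared exons cannot be assigned to either.

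The sequences before the annotated starts of Snai1 and Zeb2, genes that rose together with Zeb1, are shown because they can be searched for the E-box that the factors of this panel bind. They are the 250 bases before a RefSeq start in GRCm38.p6, for Snai1 chr2:167537945-167538194 on the forward strand and for Zeb2, at 1 of its 4 listed starts, chr2:45117443-45117692 on the reverse strand. Capitals mark the E-box CAGGTG or its reverse complement CACCTG.
Snai1: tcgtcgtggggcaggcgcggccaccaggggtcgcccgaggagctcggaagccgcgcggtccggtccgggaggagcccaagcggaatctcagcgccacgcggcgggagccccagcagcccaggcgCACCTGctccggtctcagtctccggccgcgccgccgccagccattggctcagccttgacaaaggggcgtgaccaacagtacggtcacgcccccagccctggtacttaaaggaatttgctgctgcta
Zeb2: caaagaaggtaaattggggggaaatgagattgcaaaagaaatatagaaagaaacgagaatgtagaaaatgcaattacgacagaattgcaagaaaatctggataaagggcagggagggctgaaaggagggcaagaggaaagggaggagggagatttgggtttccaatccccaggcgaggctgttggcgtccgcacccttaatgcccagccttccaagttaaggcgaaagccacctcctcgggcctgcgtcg
The window of Snai1 held 1 such E-box, in the reverse orientation and 126 bases before the start, and those of Zeb2, Twist1, Acta2 and Vim held none. Of 32851 promoter windows of the same length, 17.2% held the motif on either strand. A κB site by the NF-κB consensus was found in 1 of these windows, that of Vim, 223 bases before the start, and in 3.90% of all windows. No window was matched for Cdh1, Fn1 and Snai2, which were not searched. Cdh2 and Zeb1 were left out of the search, so whether their windows hold either motif was not examined. These are matches of letters, and no binding was measured.

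Snai2 and Twist1 had too few reads for a firm statement. Snai2, the relative of Snai1, stood at 0.454, 0.481 and 0.404 CPM in vehicle and 0.230, 0.318 and 0.211 CPM with TWEAK at 6 h. The 6 h groups did not overlap, yet the log2 fold change of −0.76 ± 0.36 SE did not pass the test (adjusted p = 0.144). At 24 h it was −0.12 with a 95% interval from −0.99 to 0.75. Twist1 had a log2 fold change of 0.38 at 6 h (interval −0.26 to 1.02, adjusted p = 0.441) and of 0.09 at 24 h (interval −0.58 to 0.76, adjusted p = 0.863). The groups of Twist1 overlapped at both times.

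**Figure D2:**
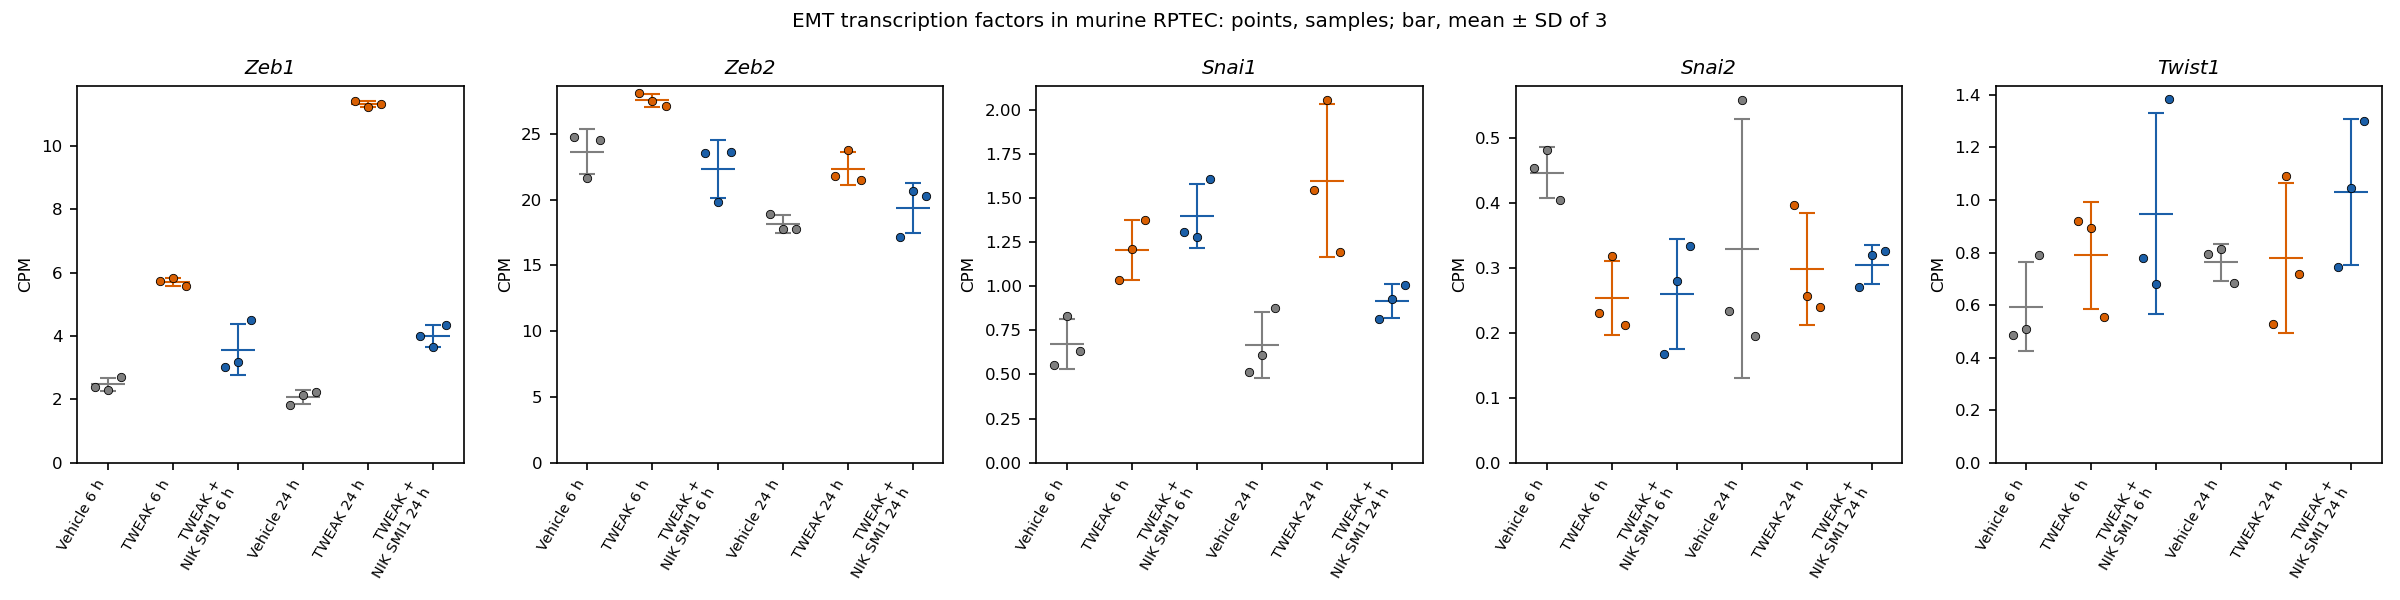
Levels in CPM (linear axes from 0) of the 5 transcription factors in the 6 groups; points are samples and bars the mean ± SD of 3. Zeb1 with TWEAK at 24 h sits at 11.2 to 11.4 CPM, above every other sample, whereas the groups of Twist1 overlap.

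The cadherins moved by small amounts, with samples that lay close together within each group. Cdh1 (Entrez Gene 12550, chr8:106603351-106670246, forward strand) stood at 1393, 1362 and 1354 CPM in vehicle and 1431, 1427 and 1459 CPM with TWEAK at 6 h. At 24 h it stood at 1117, 1112 and 1099 CPM in vehicle and 1023, 1020 and 1045 CPM with TWEAK. TWEAK samples thus lay above all vehicle samples at 6 h and below all of them at 24 h. Cdh1 rose by 5.91% at 6 h (log2 fold change 0.08 ± 0.03 SE, adjusted p = 0.0328) and fell by 7.2% at 24 h (−0.11 ± 0.03 SE, adjusted p = 0.00339). In size it ranked 1816 of 1816 genes called higher at 6 h and 3143 of 3211 called lower at 24 h. The difference between the times was −0.19 ± 0.04 SE (adjusted p = 0.00201). The 6 h call was lost when the fit held only the compared groups (adjusted p = 0.0731) and without vehicle replicate 2, vehicle replicate 3 or TWEAK replicate 3 (adjusted p = 0.101, 0.129 and 0.15). The 24 h call was lost with replicate 1 as the only TWEAK sample, at the same size (−0.11, adjusted p = 0.0573).

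Cdh2 (Entrez Gene 12558, chromosome 18) fell at both times. Its vehicle samples at 6 h held 372.6, 348.8 and 353.8 CPM and its TWEAK samples 278.5, 289.8 and 280.2 CPM. At 24 h the vehicle samples held 395.8, 395.9 and 400.2 CPM and the TWEAK samples 340.1, 338.7 and 362.3 CPM. The groups were well apart at 6 h and closer at 24 h, without overlap. Cdh2 fell by 20.4% at 6 h (log2 fold change −0.33 ± 0.03 SE, adjusted p = 1.63e-08) and fell by 12.7% at 24 h (−0.20 ± 0.03 SE, adjusted p = 4.39e-05). The difference between the times, 0.13 ± 0.05 SE, did not pass the test (adjusted p = 0.0869), but did when scaled to total reads without TMM factors (0.15, adjusted p = 0.0403).

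None of the 3 structural genes rose with TWEAK. Vim (Entrez Gene 22352, chr2:13573927-13582826, forward strand) was at 25.4, 25.9 and 26.5 CPM in vehicle and at 21.8, 22.4 and 22.8 CPM with TWEAK at 6 h, without overlap, and its log2 fold change was −0.21 ± 0.08 SE (adjusted p = 0.0577). It passed the test without TMM factors (adjusted p = 0.0413), without a filter on low counts (0.0108) and in the fit of the compared groups alone (0.0121). At 24 h the samples overlapped (27.7 to 32.3 CPM in vehicle, 26.6 to 31.2 CPM with TWEAK), and the 95% interval of its log2 fold change ran from −0.22 to 0.11. Fn1 (Entrez Gene 14268, chr1:71585520-71653200, reverse strand) lay between 7169 and 8997 CPM in vehicle and between 6560 and 7432 CPM with TWEAK at 6 h, and the change was −0.16 ± 0.06 SE on the log2 scale (adjusted p = 0.0738). This value rested on single samples: without vehicle replicate 1, the highest at 8997 CPM, it was −0.04 (adjusted p = 0.649), while Fn1 was called lower without vehicle replicate 2 (−0.22, adjusted p = 0.0105), vehicle replicate 3 (−0.20, 0.0377) or TWEAK replicate 3 (−0.20, 0.0349), without TMM factors (−0.17, 0.0363) and without a filter on low counts (−0.15, 6.98e-08). At 24 h its log2 fold change was −0.03 with an interval from −0.16 to 0.10.

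Acta2 (Entrez Gene 11475, chr19:34241090-34255590, reverse strand) was lower with TWEAK, at 4.22, 4.11 and 4.86 CPM against 5.44, 6.25 and 5.52 CPM in vehicle at 6 h. The groups did not overlap, but the log2 fold change of −0.37 ± 0.17 SE missed the threshold (adjusted p = 0.132), which it passed without a filter on low counts (0.0195) and in the fit of the compared groups alone (0.0286). At 24 h the values were 5.60, 3.83 and 3.47 CPM with TWEAK and 5.54, 7.51 and 5.22 CPM in vehicle, so that replicate 1 of TWEAK lay among the vehicle samples. Acta2 fell by 31.0% at 24 h (log2 fold change −0.54 ± 0.19 SE, adjusted p = 0.0245). This call rested on single samples: it was lost without vehicle replicate 2 (adjusted p = 0.148), without TWEAK replicate 2 (0.104) or 3 (0.14), and with replicate 1 of TWEAK alone the log2 fold change was −0.10 (adjusted p = 0.836). Counting groups that did not overlap over the whole panel at 6 h, 4 genes were lower with TWEAK (Cdh2, Vim, Acta2 and Snai2), where 20.2% of all genes were, and 4 were higher (Cdh1, Snai1, Zeb1 and Zeb2), where 15.8% were. At 24 h 2 were lower (Cdh1 and Cdh2, background 25.6%) and 3 higher (Snai1, Zeb1 and Zeb2, background 24.0%).

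**Figure D3:**
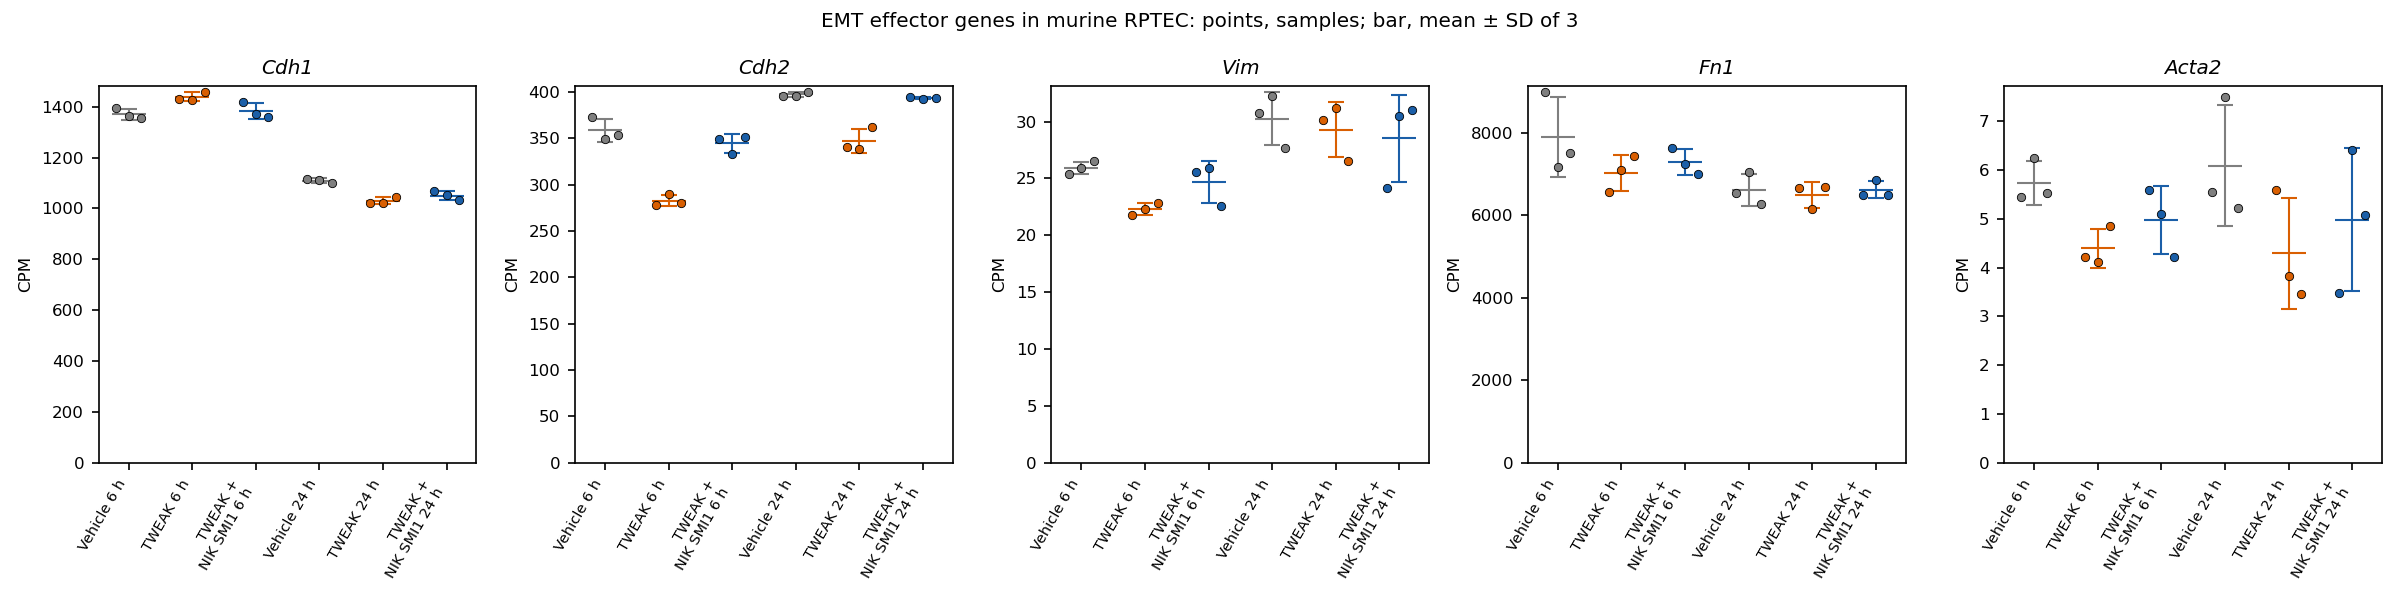
Levels in CPM (linear axes from 0) of the cadherins and the 3 structural genes in the 6 groups; points are samples and bars the mean ± SD of 3. Cdh2 with TWEAK at 6 h, at 278.5 to 289.8 CPM, lies below all other samples, and the groups of Fn1 at 24 h overlap.

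To ask how these changes differed when NIK SMI1 was added, cells given TWEAK with NIK SMI1 were compared with cells given TWEAK. The TWEAK samples also enter the comparison with vehicle. Without a group given NIK SMI1 alone, a change in the TWEAK response and an effect of the compound itself cannot be told apart. At 6 h 3 of 10 genes changed, against 11% of all genes. Zeb1 and Zeb2 fell (5.70% of all genes called lower) and Cdh2 rose (5.34% called higher). At 24 h 4 of 10 changed, against 18.5%: Zeb1, Snai1 and Zeb2 fell (8.29% called lower) and Cdh2 rose (10.2% called higher). The called and more than 1.5-fold lower genes were Zeb1 at 6 h, with 1.10% of all genes, and Zeb1 and Snai1 at 24 h, with 1.75%. Without overlap between samples, Cdh2 was higher at both times (14.5% and 18.9% of all genes), Cdh1, Zeb1 and Zeb2 were lower at 6 h (12.1%), and Snai1, Zeb1 and Zeb2 were lower at 24 h (15.0%).

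With NIK SMI1, Zeb1 stood at 3.01, 3.19 and 4.49 CPM at 6 h and at 3.99, 3.65 and 4.35 CPM at 24 h. All 6 samples were below the TWEAK samples of their time and above the vehicle samples, and replicate 3 at 6 h was the highest of its group. Zeb1 fell by 39.8% at 6 h (log2 fold change −0.73 ± 0.12 SE, adjusted p = 1.28e-04) and fell by 64.8% at 24 h (−1.50 ± 0.11 SE, adjusted p = 4.09e-11). The decrease was larger at 24 h by −0.77 ± 0.17 SE on the log2 scale (adjusted p = 0.00665), 1 of 10 genes with such a difference against 4.73% of all genes (1.62% downward, 3.11% upward). This difference holds the same TWEAK samples as the difference of the TWEAK effect, with opposite sign, so neither is independent of the other. The decrease at 24 h was as large with replicate 2 of TWEAK alone (−1.49, adjusted p = 1.59e-07), which like the NIK SMI1 samples lacked islet reads, while the difference between the times then had the same size but missed the threshold (−0.76, adjusted p = 0.0576), as it did with replicate 1 alone (−0.79, adjusted p = 0.0549).

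Zeb2 with NIK SMI1 was at 23.6, 19.8 and 23.6 CPM at 6 h and at 17.2, 20.7 and 20.3 CPM at 24 h, below the TWEAK samples of each time. It fell by 19.3% at 6 h (log2 fold change −0.31 ± 0.07 SE, adjusted p = 0.00554) and fell by 14.2% at 24 h (−0.22 ± 0.07 SE, adjusted p = 0.0377). The call at 6 h was lost without replicate 2 of NIK SMI1 (adjusted p = 0.0727), and the call at 24 h without replicate 1 or 2 of TWEAK or replicate 1 of NIK SMI1 (adjusted p = 0.0552, 0.195 and 0.273). It was also lost with replicate 1 or replicate 2 as the only TWEAK sample (adjusted p = 0.411 and 0.0709). Cdh2 went the other way, to 349.1, 333.1 and 351.6 CPM at 6 h and 394.8, 392.3 and 393.2 CPM at 24 h, above every TWEAK sample. It rose by 21.3% at 6 h (log2 fold change 0.28 ± 0.03 SE, adjusted p = 1.48e-06) and by 13.0% at 24 h (0.18 ± 0.03 SE, adjusted p = 3.69e-04).

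Snai1 had a call for NIK SMI1 at 24 h and none at 6 h. At 6 h it stood at 1.31, 1.28 and 1.61 CPM with NIK SMI1, overlapping the TWEAK samples, and the log2 fold change was 0.18 (95% interval −0.31 to 0.67, adjusted p = 0.708). At 24 h it stood at 0.812, 0.928 and 1.01 CPM, below all TWEAK samples, and it fell by 43.7% (log2 fold change −0.83 ± 0.23 SE, adjusted p = 0.0124). The difference between the times, −1.01 ± 0.33 SE, did not pass the test (adjusted p = 0.0818), but did without replicate 3 of TWEAK at 24 h (−1.20, adjusted p = 0.0393). The call at 24 h was lost without replicate 2 of TWEAK (−0.57, adjusted p = 0.163) or replicate 1 of NIK SMI1 (−0.73, adjusted p = 0.0618). With replicate 1 as the only TWEAK sample it was −0.77 (adjusted p = 0.192), and with replicate 2 it was −1.17 (adjusted p = 0.00622).

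The other 6 genes had no call for NIK SMI1 at either time. Cdh1 had a log2 fold change of −0.06 at 6 h (adjusted p = 0.174), where its samples lay below the TWEAK samples, and of 0.02 at 24 h (adjusted p = 0.644). Fn1 was at 0.05 and 0.02, with 95% intervals from −0.08 to 0.18 and from −0.11 to 0.15. Vim was at 0.15 (adjusted p = 0.29) and −0.05 (adjusted p = 0.763), and Acta2 at 0.20 and 0.24, with an interval at 24 h from −0.14 to 0.62. Snai2 and Twist1 had intervals wider than 1 log2 unit at both times.

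**Figure D4:**
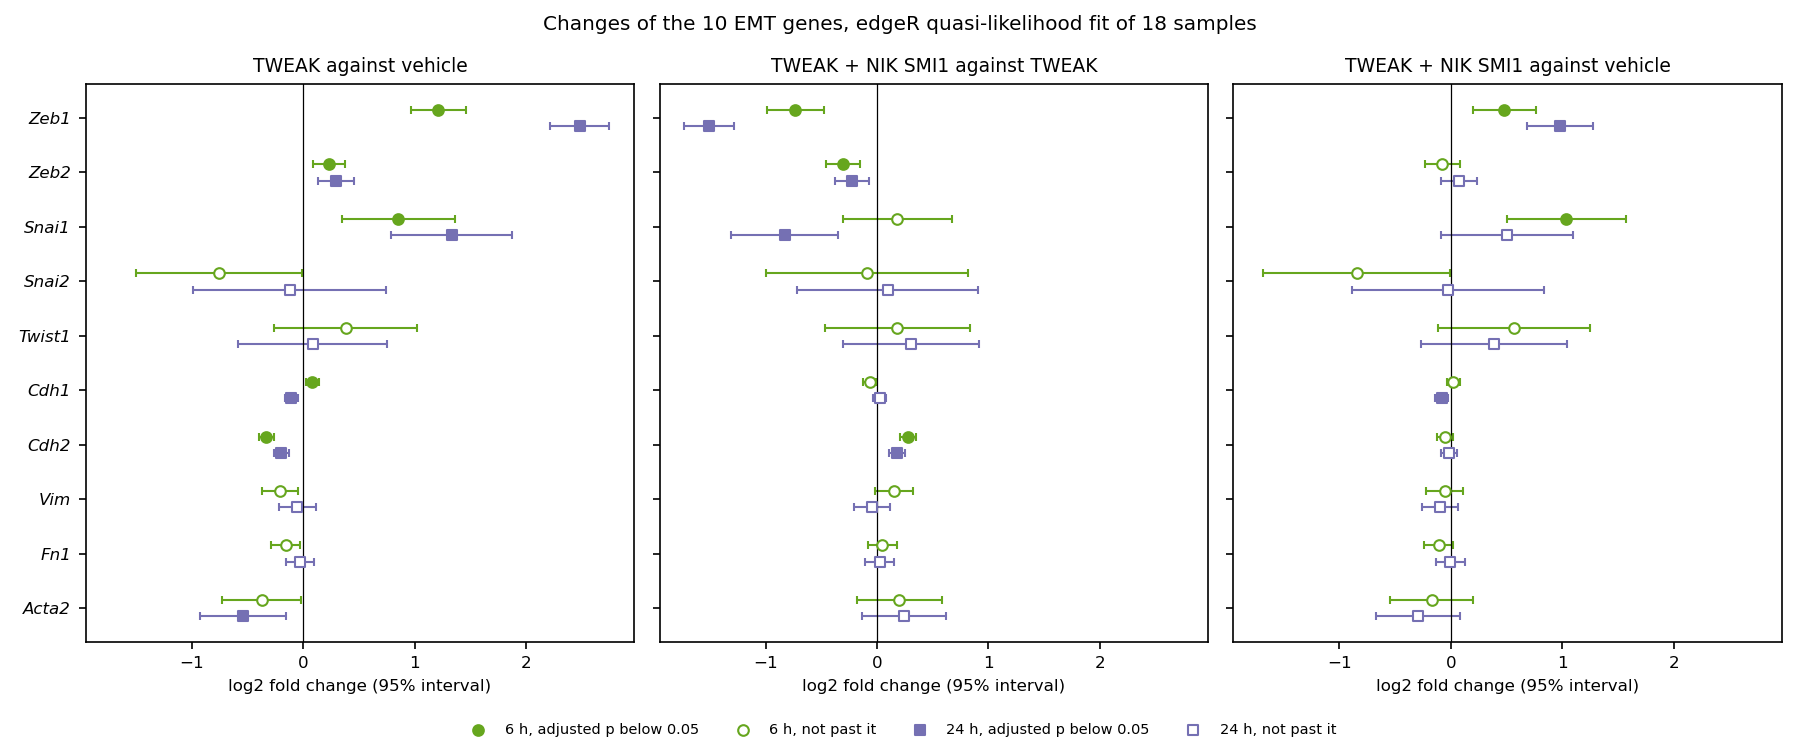
Log2 fold changes of the 10 genes with 95% intervals at 6 h (circles) and 24 h (squares) in 3 comparisons; filled symbols passed an adjusted p of 0.05. Zeb1 moves from 1.21 and 2.48 for TWEAK against vehicle to −0.73 and −1.50 for NIK SMI1 against TWEAK, and Cdh2 changes in the opposite direction in each.

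The remaining distance from vehicle was read from TWEAK with NIK SMI1 against vehicle, a comparison that shares samples with both others. At 24 h islet reads and treatment cannot be told apart in it. At 6 h Snai1 (log2 fold change 1.04 ± 0.26 SE, adjusted p = 0.00683) and Zeb1 (0.48 ± 0.14 SE, adjusted p = 0.0191) were higher, 2 of 10 genes against 13.9% of all genes (7.24% higher, 6.70% lower). The Zeb1 call at 6 h was lost in the fit of the compared groups alone (adjusted p = 0.109), without replicate 3 of NIK SMI1 (log2 fold change 0.32, adjusted p = 0.119) and without vehicle replicate 1 or 2 (adjusted p = 0.0509 and 0.0645). At 24 h Zeb1 was still 1.97-fold higher (0.98 ± 0.14 SE, adjusted p = 8.36e-06), and Cdh1 fell by 5.62% (−0.08 ± 0.03 SE, adjusted p = 0.0410), 2 of 10 against 17.9% (8.07% higher, 9.83% lower). The Cdh1 call was lost without any 1 of the 3 vehicle samples, or replicate 2 or 3 of NIK SMI1 (adjusted p from 0.061 to 0.164). Fn1 had no call at 6 h, but was lower without a filter on low counts (−0.11, adjusted p = 0.000482). For Cdh2 the log2 fold change was −0.05 at 6 h (interval −0.12 to 0.02) and −0.02 at 24 h (interval −0.09 to 0.05). Samples did not overlap at 6 h for Snai1 and Zeb1, which were higher (12.2% of all genes), and for Snai2, which was lower (13.8%), nor at 24 h for Zeb1, higher (17.7%), and for Cdh1 and Cdh2, lower (16.2%).

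Time in culture was read from the vehicle samples alone. Between 6 h and 24 h 3 of 10 genes changed, a share close to the 29.9% of all genes, and all 3 fell (14.4% called lower, 15.5% called higher). Cdh1 fell by 22.7% (log2 fold change −0.37 ± 0.03 SE, adjusted p = 6.05e-11), Zeb2 fell by 26.3% (−0.44 ± 0.08 SE, adjusted p = 6.09e-05) and Fn1 fell by 19.9% (−0.32 ± 0.06 SE, adjusted p = 2.58e-04). Without vehicle replicate 1 at 6 h, at 8997 CPM against 7169 and 7514 CPM in the other 6 h vehicle samples, the log2 fold change of Fn1 was −0.20 and still passed the test. In size the fall of Cdh1 over time exceeded its log2 fold changes of 0.08 and −0.11 with TWEAK, a difference in size that was not tested. Cdh2 and Vim were higher at 24 h without overlap, at log2 fold changes of 0.08 (adjusted p = 0.0724) and 0.16 (adjusted p = 0.152), where 31.0% of all genes were higher without overlap, and 4 genes were lower (Cdh1, Fn1, Zeb1 and Zeb2, background 11.1%). Overlap was judged on CPM without TMM factors, so these shares are not on the scale of the test. In the vehicle samples the factors ran from 0.966 to 0.987 at 6 h and from 1.02 to 1.03 at 24 h. Scaled to total reads without TMM factors, Cdh2 and Vim passed the test (0.15, adjusted p = 6.57e-04, and 0.22, adjusted p = 0.0339), and Cdh2 also passed without vehicle replicate 1 at 6 h (0.12, adjusted p = 0.00876).

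The ratio of both cadherins, as RPKM of Cdh2 over Cdh1 on the log2 scale, describes the same shift within each sample and needs no scaling between samples. It was −3.08 ± 0.03 (SD, n = 3) in vehicle at 6 h, −3.49 ± 0.04 with TWEAK and −3.15 ± 0.05 after addition of NIK SMI1. At 24 h it was −2.63 ± 0.02, −2.72 ± 0.04 and −2.56 ± 0.02 in the same order. In linear terms Cdh1 exceeded Cdh2 8.46-fold in vehicle and 11.3-fold with TWEAK at 6 h, and 6.18-fold and 6.57-fold at 24 h. TWEAK samples had the lowest ratio at each time, and all 24 h samples were above all 6 h samples. These ratios are given as a description, with no test.

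**Figure D5:**
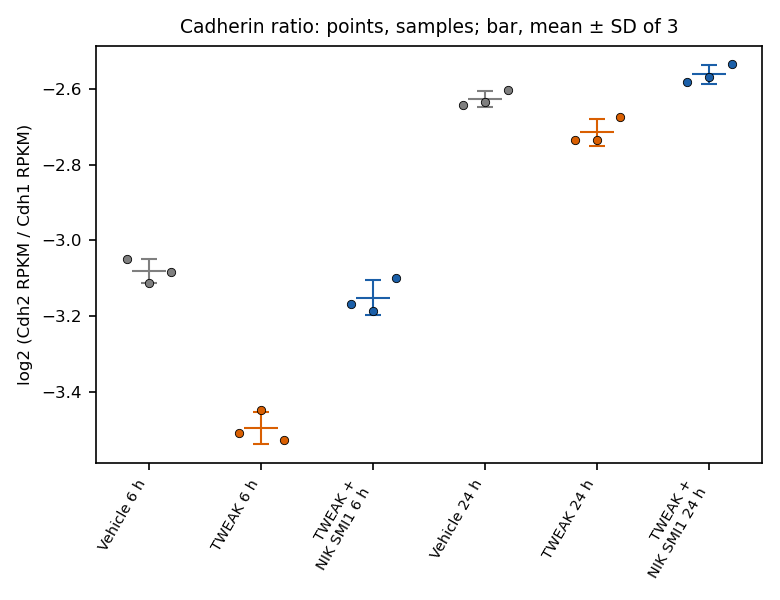
The log2 ratio of Cdh2 to Cdh1 RPKM in each sample (points), with the mean ± SD of 3 as bars; the axis does not start at 0. TWEAK lies at −3.53 to −3.45 at 6 h and at −2.74 to −2.67 at 24 h, below the other groups of the same time.

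Genes outside the panel that share its roles were counted by list. These lists, like the panel, were chosen with earlier results of these data known. The shares of all genes to set beside these counts are, with TWEAK, 11.7% higher and 12.0% lower at 6 h and 18.3% higher and 20.7% lower at 24 h. Of the 10 regulators of the epithelial state, none rose with TWEAK, while 6 fell at 6 h (12.0% of all genes) and 7 at 24 h (20.7%), with a median log2 fold change of −0.24 and −0.52. Elf3, an epithelial transcription factor, went from 64.6 ± 4.20 to 39.0 ± 2.96 CPM at 6 h (log2 fold change −0.71 ± 0.05 SE, adjusted p = 5.28e-11) and from 82.2 ± 1.35 to 33.6 ± 1.05 CPM at 24 h (−1.29 ± 0.06 SE, adjusted p = 2.73e-16). Grhl2, which maintains epithelial junction genes, fell by 0.40 on the log2 scale at 6 h, and Ehf, a relative of Elf3, by 0.76 at 24 h. With NIK SMI1 against TWEAK, 3 of the 10 rose at 6 h (5.34% of all genes) and 5 at 24 h (10.2%), with none lower, Elf3 among them at 24 h (0.53 ± 0.06 SE, adjusted p = 7.42e-08).

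Of 20 epithelial junction genes, 5 rose and 10 fell with TWEAK at 6 h (11.7% and 12.0% of all genes), and 4 rose and 12 fell at 24 h (18.3% and 20.7%), so that the count of higher genes at 24 h was near the share of all genes. Epcam, an adhesion molecule of epithelial cells, rose from 720.9 ± 26.7 to 1292 ± 57.0 CPM at 6 h and from 649.0 ± 6.51 to 1214 ± 15.1 CPM at 24 h (log2 fold changes 0.85 and 0.90). Cdh6, a cadherin of the developing and adult proximal tubule, fell by 0.68 and 1.10 on the log2 scale, and the keratin Krt19 fell by 0.87 at 24 h. With NIK SMI1 against TWEAK, 7 of the 20 rose and 4 fell at 6 h (5.34% and 5.70% of all genes). At 24 h 9 rose and 4 fell (10.2% and 8.29%). In these comparisons Epcam had log2 fold changes of −0.62 and −0.46, and Cdh6 of 0.51 at 24 h.

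Of 23 mesenchymal structural genes, 18 were tested, and Cnn1, Des, Col3a1, Col6a3 and Fap were under the filter with at most 10 reads in a sample. With TWEAK 2 of the 18 rose and 5 fell at 6 h (11.7% and 12.0% of all genes), and 5 rose and 6 fell at 24 h (18.3% and 20.7%). The count of higher genes at 6 h was near the share of all genes. The list had medians of −0.16 and −0.10. Cdh11, a cadherin of mesenchymal cells, rose from 3.02 ± 0.461 to 8.32 ± 0.150 CPM at 24 h (log2 fold change 1.42 ± 0.12 SE, adjusted p = 2.16e-10). Ddr2 and Myl9 fell at 24 h, by 1.09 and 1.85 on the log2 scale (adjusted p = 0.00339 and 0.0371). Myl9 was at 0.199 ± 0.150 CPM in vehicle and 0.0533 ± 0.0487 CPM with TWEAK, with samples that overlapped. Sparc, a matricellular protein, fell by 0.53 at 6 h (adjusted p = 2.12e-14). With NIK SMI1 against TWEAK at 24 h, 3 of the 18 rose and 4 fell (10.2% and 8.29% of all genes), with a list median of −0.02. The matrix receptor subunit Itga5 was among those that fell, by 0.51 on the log2 scale.

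Of 14 genes of TGF-β signaling, the best known inducer of EMT, 4 rose and 7 fell with TWEAK at 6 h (11.7% and 12.0% of all genes), and 7 rose and 5 fell at 24 h (18.3% and 20.7%). The ligand Tgfb2 rose from 3.50 ± 0.401 to 13.7 ± 0.878 CPM at 6 h and from 2.53 ± 0.507 to 12.8 ± 1.15 CPM at 24 h (log2 fold changes 1.97 and 2.29). Id2, an inhibitor of basic helix-loop-helix factors, fell by 1.29 and 1.90. With NIK SMI1 against TWEAK, 3 of the 14 rose and 2 fell at 6 h (5.34% and 5.70% of all genes). At 24 h 4 rose and 3 fell (10.2% and 8.29%). In these comparisons Tgfb2 had log2 fold changes of −1.31 at 6 h and −1.37 at 24 h, and Id2 of 0.43 and 0.83. Of 10 further transcription factors linked to EMT, 8 were tested, and 2 rose and 2 fell at 6 h (11.7% and 12.0% of all genes) and 4 rose and 2 fell at 24 h (18.3% and 20.7%). Twist2, a relative of Twist1, fell by 1.07 and 1.24 on the log2 scale, and Klf8 rose by 0.73 at 24 h.

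Genes with the most similar pattern to each changed member were sought by the correlation of log2 CPM over the 18 samples, which share the 6 groups, among 13165 genes. Zeb1 was closest to Mmp9, a matrix metalloproteinase, with Pearson r = 0.967, then to Tcim (0.966) and Ankrd6 (0.965). Cdh2 was closest to the amino acid transporter gene Slc7a6 (0.973) and to Sparc (0.954), and Cdh1 to the endoplasmic reticulum chaperone gene Hspa5 (0.986). Snai1 followed Grwd1 (0.914) and Zeb2 followed Sh3kbp1 (0.941), while the best value for Acta2 was 0.808, with Cracr2b. These values are descriptive and carry no test.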

How the data were processed

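RNASeq was performed on 18 murine RPTEC samples. Alignment by the authors used HTSeqGenie and GSNAP, with single-end reads placed on NCBI build 37 of the mouse, and the deposited raw counts are uniquely aligned reads per gene over its exons. The same files hold RPKM values made by the authors, together with the exonic length per gene as deposited. The total behind the RPKM values is 2.96% to 5.30% above the summed counts. RPKM served only to compare levels between genes, and CPM are counts scaled to the counted reads of a sample.

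Counts were fitted as 6 groups in edgeR 4.0.16 under R 4.3.3 (TMM, estimateDisp, glmQLFit, glmQLFTest) with Benjamini-Hochberg adjustment over 15521 genes (over 10 reads in 4 or more samples). The study used DESeq2, run here (1.42.0) as an alternative. The 3 samples per group are not stated to be separate cell preparations, so p-values measure the spread between these samples, which may be technical. Replicates carry no numbers in the labels and were numbered in accession order. Totals ran from 18040966 to 51956444 counted reads, so that 3 reads are 0.0577 to 0.166 CPM, for counting error only.

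Symbols came from RefSeq by gene identifier, with 31049 identifiers matched. Positions came from GENCODE M21 (GRCm38) by gene name, with no conversion between builds, and promoter windows from RefSeq (GRCm38.p6). The 10 genes and all lists were chosen with earlier results of these data known. All 10 genes were tested in every comparison, and a gene not named in a comparison had no call there in the main fit. From each further list at most 3 called genes with the largest change were eligible to be named. For each gene called for TWEAK against vehicle, the 3 genes with the highest correlation of log2(CPM + 0.1) were taken from those with a mean of at least 1 CPM. Alternatives were other size factors, no TMM, no filter, filterByExpr, DESeq2, fits of the compared groups only, and leaving out each sample. Settings on the samples with few islet reads were added after seeing the data.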

Additional observations from a re-analysis of the deposited data

Results flagged for a closer look

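The effect of an agent differed between 6 h and 24 h, by the interaction contrast in edgeR, for 3 results. Both results on Zeb1 hold the same TWEAK samples, with opposite sign, and are not independent of each other. The TWEAK effect on Zeb1 was larger at 24 h by 1.27 on the log2 scale (adjusted p = 2.01e-05), and over 20 alternative settings this value ran from 1.15 to 1.33. The TWEAK effect on Cdh1 was lower at 24 h by −0.19 (adjusted p = 0.00201), going from 0.08 to −0.11. The call of Cdh1 for TWEAK at 6 h was lost in some settings. The NIK SMI1 effect on Zeb1 was lower at 24 h by −0.77 (adjusted p = 0.00665), with alternatives from −0.90 to −0.62, and missed the threshold with replicate 1 or replicate 2 as the only TWEAK sample at 24 h (adjusted p = 0.0549 and 0.0576).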

How the results depend on the processing

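No paired analysis was possible because the labels give no replicate numbers. No result changed direction past the threshold under an alternative. Leaving out 1 sample at a time, the number of the 10 genes called was 4 to 5 for TWEAK at 6 h (with Fn1 gained in 3 of these settings), 5 to 6 at 24 h, 2 to 3 for NIK SMI1 against TWEAK at 6 h, 2 to 4 at 24 h, 1 to 2 against vehicle at 6 h and at 24 h, 3 to 4 for vehicle over time, 2 to 2 for the TWEAK interaction and 1 to 2 for the NIK SMI1 interaction. Without a filter on low counts 8 were called for TWEAK at 6 h (Vim, Fn1 and Acta2 in addition) and 1 for NIK SMI1 against vehicle at 24 h, and Fn1 was gained for NIK SMI1 against vehicle at 6 h and for the TWEAK interaction (0.12, adjusted p = 0.0141). Total reads without TMM added Vim and Fn1 for TWEAK at 6 h and Cdh2 for the TWEAK interaction, and the fit of the compared groups added Vim and Acta2 for TWEAK at 6 h. The fit of the compared groups alone called 1 for NIK SMI1 against vehicle at 6 h, and total reads without TMM called 5 for vehicle over time. DESeq2 called as many of the 10 genes as edgeR in each comparison.

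With replicate 1 of TWEAK at 24 h alone, 3 genes were called for TWEAK at 24 h (Zeb1, Snai1 and Cdh2), 2 for NIK SMI1 against TWEAK at 24 h (Zeb1 and Cdh2) and 0 for the NIK SMI1 interaction, which was 0 with replicate 2 alone as well. These fits hold 1 TWEAK sample at 24 h, assumed to vary like the other groups. Over all genes, the counts of calls then fell from 6054 to 3696 (TWEAK at 24 h, replicate 1), from 2866 to 1380 and 1432 (NIK SMI1 against TWEAK at 24 h, replicates 1 and 2), from 1383 to 714 and 894 (TWEAK interaction) and from 734 to 290 and 274 (NIK SMI1 interaction). Without replicate 2 of NIK SMI1 at 6 h they fell from 1714 to 1138 (against TWEAK) and from 2163 to 1400 (against vehicle, 1221 in the fit of the compared groups), and the NIK SMI1 interaction ranged from 388 to 483 in 4 settings without 1 sample. The cause of these shifts other than fewer samples was not tested. With few reads, Snai2, Twist1 and Snai1 had the widest intervals.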
